A study of Mus musculus with 8 samples.

Results

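The genes described here are 10 that build, load and display MHC class I molecules. They are the heavy chains H2-K1, H2-D1, H2-Q6 and H2-Q7, the light chain B2m, the peptide transporter subunits Tap1 and Tap2, the loading chaperone Tapbp (tapasin) and the immunoproteasome subunits Psmb8 and Psmb9. They were found by symbol among the 11854 named entries of the deposited table, and all 10 were present. The 10 were chosen with the difference between the genotypes in these same libraries known, so their differences and calls are given as a description and support nothing by themselves.

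Haematopoietic stem cells (HSCs) were sorted from bone marrow of 4 wild type and 4 Nupr1-/- mice kept on a C57BL/6J background, and 1 library was sequenced from the polyadenylated RNA of each mouse. Nupr1 is a small nuclear protein induced by stress, and the title of the series places it in HSC quiescence and p53 signalling. The deleted part of the gene, the sorting markers and the age and sex of the mice are not given in the sources used here. Values are normalised reads, that is, gene read counts scaled to 1 size factor per library, with 2296101 to 4769401 reads behind each library.

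Class I molecules display peptides from a cell's own proteins to CD8 T cells and to natural killer cells. Proteasomes, in which interferon-induced subunits can replace the constitutive ones, cut proteins into peptides. The TAP transporter carries the peptides into the endoplasmic reticulum, where tapasin and other chaperones help load them onto a heavy chain paired with beta-2-microglobulin. H2-K1 and H2-D1 are classical class I molecules, and H2-Q6 and H2-Q7 encode Qa-2, a non-classical molecule that can be anchored to the membrane by a lipid. Genes of the pathway are known to be transcribed under control of NLRC5, interferon regulatory factors and NF-kappaB.

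The libraries carried HSC transcripts: 16 of 16 HSC markers, such as Kit, Procr, Mecom and Hlf, were in the table, and their summed level was 10697 to 13987 normalised reads in wild type and 11173 to 13160 in the knockout-labelled libraries. Of the 16, 0 passed in limma and edgeR and 2 in DESeq2, which called 764 of all 10989 tested genes. Of these markers 10 lay above 0, and 6 had an unadjusted limma p under 0.05 (3 higher, 3 lower). Without overlap were 1 higher and 1 lower. Over all tested genes the share below that p was 19.7%, and the share without overlap 11.7%. Of the markers named, Procr (-0.55, without overlap), Mecom (-0.79) and Hlf (-0.46) had log2 differences below 0 and Kit (0.22) above. Their limma adjusted p were 0.167, 0.105, 0.191 and 0.629 in this order. Nupr1 itself was 134.0 to 318.2 in wild type and 118.5 to 200.6 in knockout-labelled libraries, with overlap, so the groups are named as labelled. Xist was 0 in 3 wild type libraries, 11.8 in wild type library 2 and 107.2 to 159.3 in those labelled knockout, and sex and genotype cannot be told apart here. Along the first principal component, which held 25.6% of the variance, wild type library 2 lay far from the other 7. The differences of the 10 genes are therefore given with and without it. So are the limma counts of calls of the 10 genes, of the pathway, interferon-induced and MHC region genes and of all genes. Counts for cell type markers are given only with it. GC content moved with the groups: across 10888 genes, which are not independent replicates, GC content and the difference between groups had a Spearman correlation of 0.449. The difference of each of the 10 genes is therefore also given after the trend in GC content and length was removed from every library. For the other genes it is given where the removal turned the direction, and for some others. In bulk RNA fewer cells of a type and less RNA per cell cannot be told apart.

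In the knockout-labelled libraries the Qa-2 genes H2-Q7 and H2-Q6 were 1.91-fold and 2.31-fold higher than in wild type, B2m was 1.54-fold lower, and the classical heavy chains H2-K1 and H2-D1 lay within overlapping ranges. Tap1 and Psmb8 were higher without overlap, and Tap2, Tapbp and Psmb9 overlapped. Of the 10 genes 3 passed the test over all genes (limma, Benjamini-Hochberg adjusted p under 0.05), 2 higher and 1 lower, where 3.80% of all 10989 tested genes passed (1.68% higher and 2.12% lower). The groups were fully apart in 5 of the 10 (4 higher, 1 lower), against 11.7% of all tested genes (5.78% higher and 5.91% lower). The median log2 difference, knockout-labelled libraries minus wild type, was 0.47 over the 10 genes and 0.025 over all genes, and 9 of the 10 lay above 0. With the GC and length trend removed the median of the 10 was 0.16. All 10 passed the filter on low values (at least 10 in at least 4 libraries), and nothing is read from these counts because the genes were picked on this contrast.

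**Figure D1:**
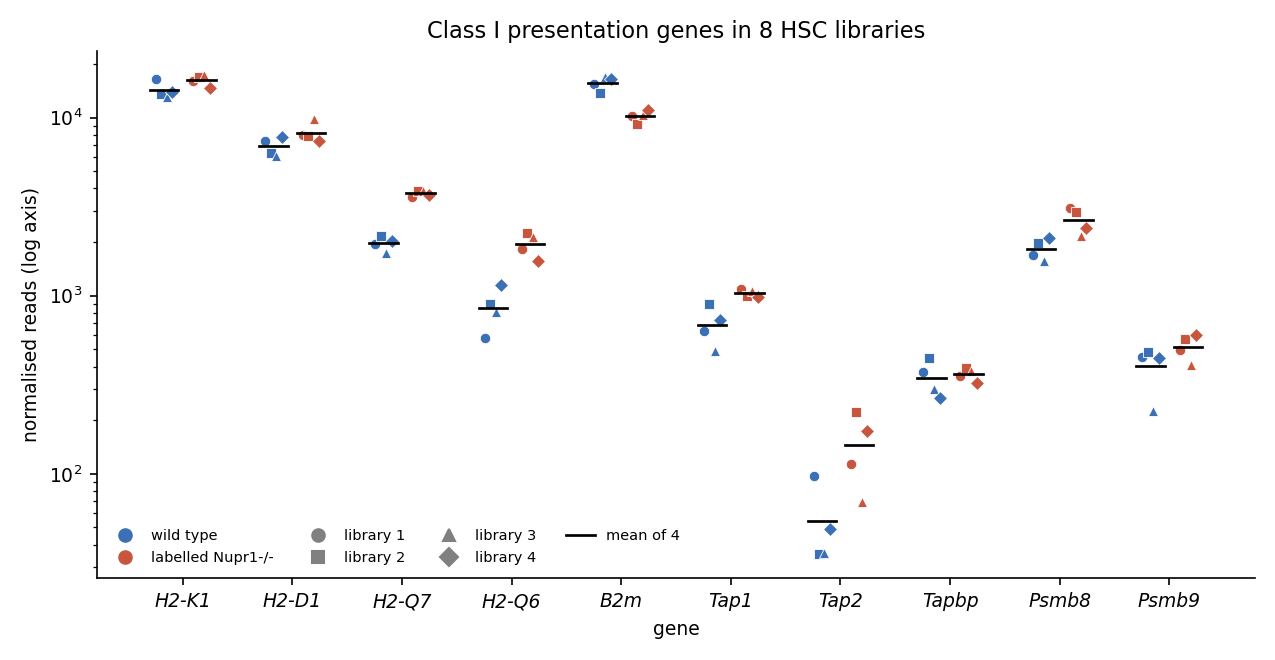
Normalised reads (log axis) of the 10 class I presentation genes in 4 wild type (blue) and 4 libraries labelled Nupr1-/- (red); symbols mark library numbers and black lines the mean of 4. H2-Q6, H2-Q7, Tap1 and Psmb8 are higher without overlap in the red points, B2m is lower without overlap, and the other 5 overlap.

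The promoters of 4 of the genes are shown because these genes went different ways: H2-Q6 and H2-Q7 were higher, H2-K1 overlapped and B2m was lower. Each is the 250 bases before the RefSeq start (GRCm38.p6, the assembly of mm10), 5′ to 3′ on the gene's own strand. The windows lie at chr17:35424600-35424849 (plus strand) for H2-Q6, chr17:35438905-35439154 (plus) for H2-Q7, chr17:34000348-34000597 (minus) for H2-K1 and chr2:122147437-122147686 (plus) for B2m. Capitals mark matches on either strand to 4 short motifs: AANNGAAA, a core of interferon response elements, GGGGATTCC, a core of the NF-kappaB site of class I promoters, CCAAT, and TGACG, a part of cyclic AMP response elements.
H2-Q6: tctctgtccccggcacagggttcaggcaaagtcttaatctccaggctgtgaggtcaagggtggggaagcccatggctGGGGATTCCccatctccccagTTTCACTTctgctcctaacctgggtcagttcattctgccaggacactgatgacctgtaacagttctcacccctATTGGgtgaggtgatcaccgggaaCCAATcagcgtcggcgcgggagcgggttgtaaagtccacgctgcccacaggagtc
H2-Q7: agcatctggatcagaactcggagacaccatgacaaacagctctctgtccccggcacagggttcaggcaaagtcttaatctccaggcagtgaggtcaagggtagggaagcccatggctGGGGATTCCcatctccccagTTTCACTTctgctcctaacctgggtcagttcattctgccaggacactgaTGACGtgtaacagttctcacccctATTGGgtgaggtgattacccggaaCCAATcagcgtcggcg
H2-K1: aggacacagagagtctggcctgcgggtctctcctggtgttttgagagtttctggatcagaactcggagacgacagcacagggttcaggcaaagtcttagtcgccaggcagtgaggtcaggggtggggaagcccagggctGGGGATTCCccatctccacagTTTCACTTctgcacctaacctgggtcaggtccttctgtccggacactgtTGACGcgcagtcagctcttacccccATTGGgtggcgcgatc
B2m: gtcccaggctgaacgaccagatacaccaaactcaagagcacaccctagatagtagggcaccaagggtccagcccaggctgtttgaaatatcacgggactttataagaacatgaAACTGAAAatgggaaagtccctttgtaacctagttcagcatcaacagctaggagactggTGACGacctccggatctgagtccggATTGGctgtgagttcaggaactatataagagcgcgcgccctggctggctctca
GGGGATTCC was found in the 4 heavy chain windows and in 59 of 27025 RefSeq promoter windows of the same length (0.218%). It was chosen as a site of class I promoters, so its presence in the heavy chain windows is no independent result. Only these exact letters were searched, and a site with other letters, in B2m or elsewhere, would be missed. AANNGAAA was found in the heavy chains and B2m, 5 of the 9 members with a window, and in 21.6% of all promoters. CCAAT was in 8 of the 9 (34.5% of all promoters) and TGACG in 6 of the 9 (17.9%), with H2-Q6, Psmb8 and Tapbp lacking the letters TGACG in this window. No pair of these motifs overlapped in the windows shown. Tap2 had no entry.

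The heavy chain promoters were close in sequence, whether the gene overlapped between the groups or not. H2-Q6 and H2-Q7 were identical in 205 of 211 aligned bases (97.2%), and H2-Q7 and H2-K1 in 148 of 168 (88.1%). H2-K1 and H2-D1, the classical pair, were identical in 161 of 177 (91.0%). B2m aligned to H2-Q7 over 40 columns only, 30 of them identical. In H2-Q7 the GGGGATTCC match began 133 bases before the start and the AANNGAAA match 113 bases before, and in H2-K1 they began at 111 and 90 bases. A match is a description of the letters and not a bound site.

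H2-Q6 (ENSMUSG00000073409.12, protein-coding, mm10 chr17:35424850-35430055, plus strand) was 576.5, 893.7, 809.6 and 1148.8 normalised reads in wild type libraries 1 to 4. Knockout-labelled libraries 1 to 4 had 1830.1, 2254.4, 2130.2 and 1569.5. Every library labelled knockout lay above every wild type library, and the lowest wild type value was in library 1. The mean went from 857 ± 236 to 1946 ± 308 (SD, n = 4), a log2 difference of 1.21 ± 0.21 (SE), or 2.31-fold. It passed the threshold in all 8 fits with 1 library omitted (1.03 to 1.37), and was 1.25 without wild type library 2. With the GC and length trend removed the log2 difference of H2-Q6 was 0.86 ± 0.20 and did not pass, while with wild type library 2 left out as well it was 0.87 ± 0.20 and passed.

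H2-Q7, the second Qa-2 gene (ENSMUSG00000060550.16, protein-coding, chr17:35439155-35443773, plus strand), lies downstream of H2-Q6 on the same strand. It was 1961.4, 2168.8, 1731.9 and 2024.8 normalised reads in wild type libraries 1 to 4, against 3569.9, 3892.8, 3864.5 and 3666.7 in knockout-labelled libraries 1 to 4. The values lay close together within each group and were wide apart between the groups. The mean went from 1972 ± 182 to 3748.5 ± 156 (SD, n = 4), a log2 difference of 0.93 ± 0.15 (SE), or 1.91-fold, and was 0.98 without wild type library 2. H2-Q7 was the only one of the 10 past the threshold with the GC and length trend removed (0.73 ± 0.14, SE), where 0.309% of all genes passed. With wild type library 2 left out as well, H2-Q7 (0.77) and H2-Q6 passed.

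Reads can be shared among class I heavy chains, which arose by gene duplication. Of the stretches of 50 bases in the annotated transcripts of H2-Q6, 34.97% also occur in another annotated gene, 13.95% in H2-Q7 and 12.33% in H2-Q4. For H2-Q7 the share was 26.45%, with 14.03% in H2-Q10, 8.74% in H2-Q5 and 6.31% in H2-Q6, and for H2-D1 and H2-K1 it was 12.77% and 9.63%, while B2m had 0 such stretches. The sources used here do not say how reads that fit several genes were counted, so H2-Q6 and H2-Q7 are also given as a sum, which moving reads between these 2 genes cannot change. Reads shared with the other heavy chains are not covered by this sum. The sum was 2538 to 3173.7 normalised reads in wild type and 5236.2 to 6147.2 in knockout-labelled libraries, again without overlap, with a log2 difference of 1.01 ± 0.15 (SE). The ratio of H2-Q6 to H2-Q7 was 0.435 ± 0.114 in wild type and 0.518 ± 0.0657 in knockout-labelled libraries (SD, n = 4), with overlap.

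H2-D1, a classical heavy chain (ENSMUSG00000073411.11, protein-coding, chr17:35262730-35267499, plus strand), was 7410.6, 6366.5, 6080.0 and 7799.3 normalised reads in wild type libraries 1 to 4, against 7966.6, 7847.9, 9782.3 and 7367.7 in those labelled knockout. Wild type libraries 1 and 4 lay at the level of library 4 labelled knockout, and the groups overlapped. The mean was 6914 ± 822 against 8241 ± 1059.6 (SD, n = 4), a log2 difference of 0.25 ± 0.14 (SE). H2-D1 did not pass, and its difference was 0.22 without wild type library 2 and -0.15 ± 0.14 with the GC and length trend removed.

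H2-K1, the other classical heavy chain (ENSMUSG00000061232.16, protein-coding, chr17:33996017-34000347, minus strand), was 16377.4, 13503.7, 12973.6 and 13966.0 normalised reads in wild type libraries 1 to 4, against 16060.1, 16875.4, 17407.1 and 14648.3 in those labelled knockout. Wild type library 1 reached into the range of the knockout-labelled libraries. The mean was 14205 ± 1504 against 16248 ± 1202 (SD, n = 4), a log2 difference of 0.20 ± 0.12 (SE) that did not pass, was 0.17 without wild type library 2 and was -0.11 ± 0.12 with the trend removed. Values per kilobase are divided by the length of all annotated exons of a gene together, not by that of 1 transcript. On this scale H2-K1 was the most abundant of the 4 heavy chains in both groups. In wild type it was at 4835 ± 512 normalised reads per kilobase, against 2681 ± 319 for H2-D1, 462 ± 42.7 for H2-Q7 and 411 ± 113 for H2-Q6. In that order H2-Q7 and H2-Q6 did not differ beyond their spread in wild type.

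The make-up of the heavy chain reads shifted toward Qa-2. Over 14 class I heavy chain genes in the table, H2-Q6 and H2-Q7 together held 8.61%, 12.24%, 10.67% and 11.56% of the reads in wild type libraries 1 to 4. In knockout-labelled libraries 1 to 4 they held 17.01%, 18.32%, 16.94% and 17.6%. These shares did not overlap, with means of 10.8% ± 1.58 and 17.5% ± 0.643 (SD, n = 4). The share of H2-K1 went from 53.7% ± 2.01 to 49.8% ± 0.719, with the lowest wild type share (50.88%) next to the highest of the knockout-labelled libraries (50.59%). The share of H2-D1 was 26.1% ± 1.53 and 25.2% ± 1.77 and overlapped. The other 10 heavy chain genes together held 9.37% ± 0.978 and 7.47% ± 0.943. Shares of a whole move together, so a higher share of Qa-2 lowers the others by construction. The sum of all 14 was 26439 ± 2528 against 32606 ± 2418 normalised reads (SD, n = 4; log2 difference 0.30 ± 0.11, SE), which did not pass when fitted with all genes.

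**Figure D2:**
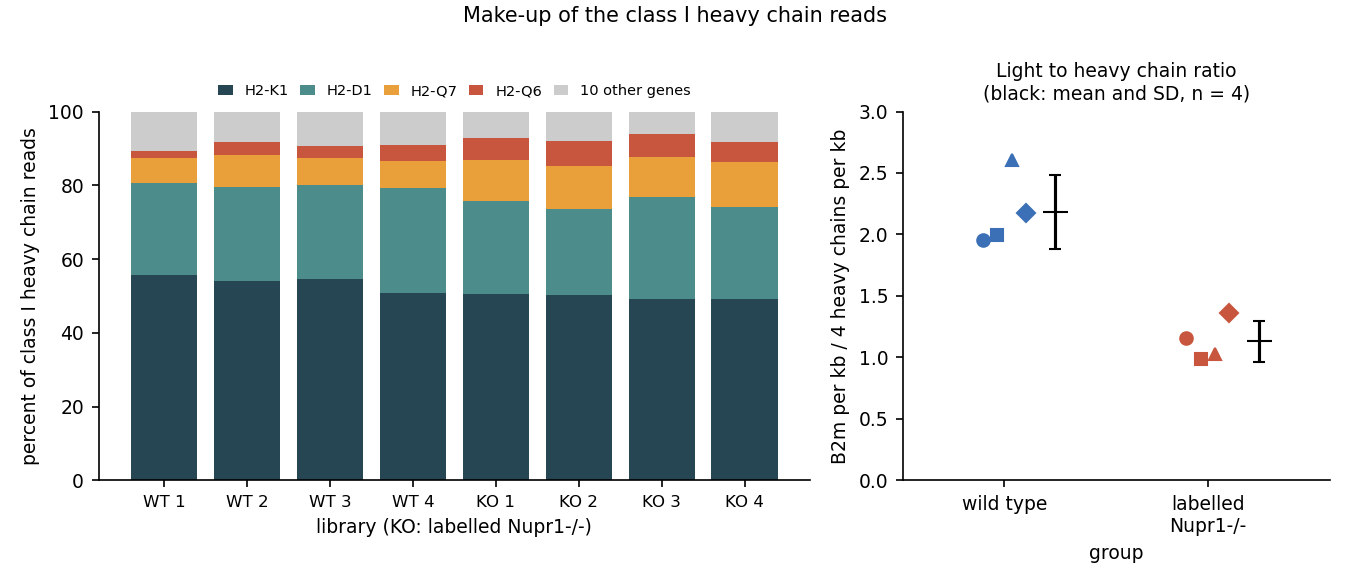
Left, percent of class I heavy chain reads held by H2-K1, H2-D1, H2-Q7, H2-Q6 and 10 other genes in each of 8 libraries; right, the ratio of B2m to the sum of 4 heavy chains, both per kilobase, with the mean and SD of 4 libraries in black. The orange and red Qa-2 segments together hold 8.61% to 12.24% of a wild type bar and 16.94% to 18.32% of a bar labelled knockout, and the ratio does not overlap between the groups.

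B2m encodes beta-2-microglobulin, the light chain that class I heavy chains need to fold and reach the surface (ENSMUSG00000060802.8, protein-coding, chr2:122147686-122153083, plus strand). It was 15436.0, 13759.9, 16979.7 and 16460.3 normalised reads in wild type libraries 1 to 4, against 10205.1, 9165.9, 10278.0 and 11040.8 in knockout-labelled libraries 1 to 4. All knockout-labelled libraries lay below all wild type libraries, while the heavy chains lay level or higher. The mean went from 15659 ± 1419 to 10172 ± 770.2 (SD, n = 4), a log2 difference of -0.62 ± 0.12 (SE), or 1.54-fold lower. B2m passed in 6 of 8 fits with 1 library omitted; without library 1 labelled knockout (-0.62) or library 2 labelled knockout (-0.57) it did not. Without wild type library 2 it was -0.68.

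The difference of B2m was close to 0 once the GC trend was removed. Its longest transcript has 860 bases and a GC content of 41.2%, at percentile 9.93 of the tested genes, while the other 9 members lie between 52.1% and 57.1%. With the GC and length trend removed the log2 difference of B2m was 0.07 ± 0.12 (SE). It was -0.11 with the GC trend alone removed and -0.64 with the length trend alone removed. H2-D1, H2-K1 and Tapbp also changed sign with the trend removed, from above to below 0, and H2-Q6, H2-Q7, Tap1, Tap2, Psmb8 and Psmb9 stayed above 0. Among all genes tested those called higher had a median GC content of 55.9% and those called lower 41.7%, and the part of GC content in these differences was not tested further.

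**Figure D3:**
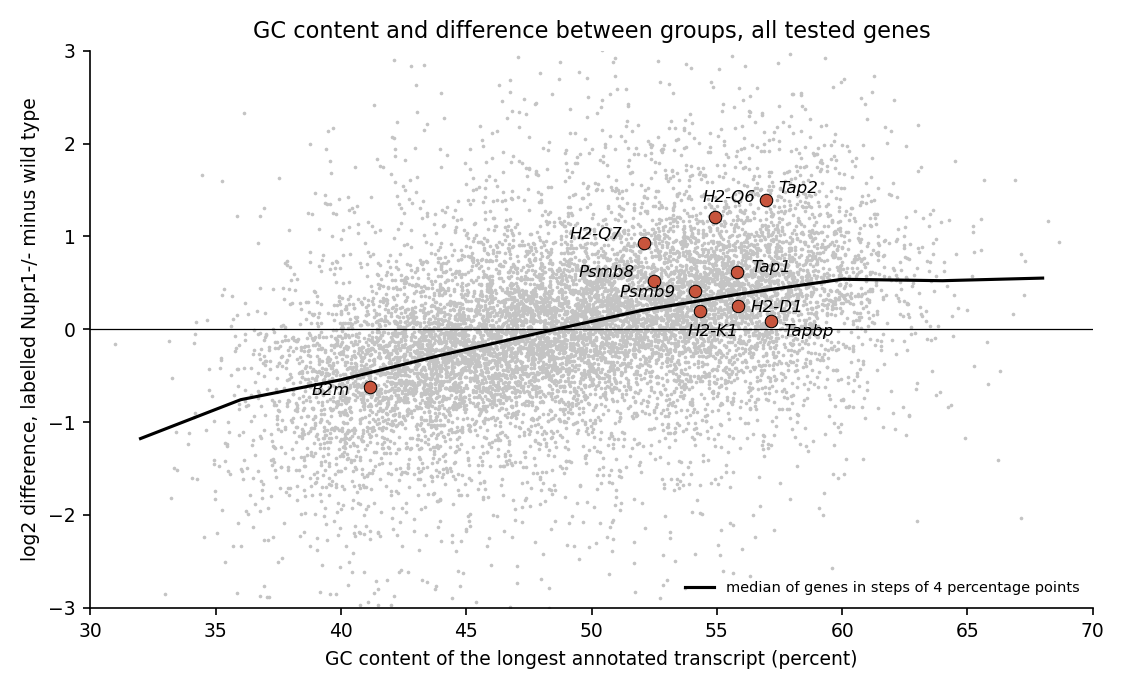
GC content of the longest annotated transcript (percent) against the log2 difference between groups for all tested genes with a GC value (grey), with the 10 class I presentation genes in red and the median of genes in steps of GC content as a black line; genes beyond 3 log2 units are not shown. B2m lies at 41.2% GC near the black line, and H2-Q6, H2-Q7 and Tap2 lie above it.

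B2m was among the most abundant transcripts of these cells, at rank 8 of 10888 genes per kilobase. The ratio of B2m to the sum of the 4 heavy chains, each per kilobase, was 1.954, 1.999, 2.609 and 2.174 in wild type libraries 1 to 4, against 1.155, 0.989, 1.026 and 1.358 in those labelled knockout. The mean ratio was 2.18 ± 0.299 in wild type and 1.13 ± 0.167 in knockout-labelled libraries (SD, n = 4), without overlap and on values that still hold the GC trend. The length used is that of all annotated exons together. It is 860 bases for B2m and 2938 for H2-K1, whose longest transcript has 1874. The level of the ratio depends on this choice, so light and heavy chain amounts are not ranked by it.

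Tap1 encodes a subunit of the peptide transporter (ENSMUSG00000037321.17, protein-coding, chr17:34187553-34197225, plus strand). It was 633.6, 893.7, 488.6 and 730.9 normalised reads in wild type libraries 1 to 4, against 1086.4, 990.0, 1066.4 and 976.9 in knockout-labelled libraries 1 to 4. The groups did not overlap, with wild type library 2 nearest to the other group. The mean went from 687 ± 170.2 to 1029.9 ± 54.6 (SD, n = 4), a log2 difference of 0.62 ± 0.21 (SE) that did not pass. Without wild type library 2 the difference of Tap1 was 0.75 and passed, and with the GC and length trend removed from all 8 libraries it was 0.22 ± 0.20.

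Tap2, the partner subunit (ENSMUSG00000024339.12, protein-coding, chr17:34203527-34216321, plus strand), was the least abundant of the 10. It was 96.8, 35.5, 35.9 and 49.1 normalised reads in wild type libraries 1 to 4, against 113.7, 223.2, 69.8 and 173.1 in knockout-labelled libraries 1 to 4. Wild type library 1 lay above library 3 labelled knockout. The log2 difference of Tap2 was 1.40 ± 0.51 (SE), with the widest error of the 10, 1.24 without wild type library 2 and 0.94 ± 0.52 with the trend removed, and none of these passed. The mean was 54.3 ± 29.0 against 145 ± 67.2 (SD, n = 4). Per kilobase Tap2 was read at 14.4 ± 7.67 and Tap1 at 125 ± 31.1 in wild type, although their proteins pair in the transporter.

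Tapbp encodes tapasin, which bridges the transporter and the class I molecule (ENSMUSG00000024308.15, protein-coding, chr17:33915899-33929292, plus strand). Its values were 371.8, 449.3, 299.1 and 267.6 in wild type libraries 1 to 4, against 355.8, 392.8, 379.9 and 323.2 in knockout-labelled libraries 1 to 4. The groups overlapped throughout. The mean was 347 ± 81.0 against 363 ± 30.6 (SD, n = 4), a log2 difference of 0.09 ± 0.25 (SE). It was 0.22 without wild type library 2 and -0.38 ± 0.25 with the trend removed.

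Psmb8 encodes the beta-5i subunit of the immunoproteasome (ENSMUSG00000024338.15, protein-coding, chr17:34197721-34201454, plus strand). It was 1694.1, 1978.6, 1558.4 and 2120.8 normalised reads in wild type libraries 1 to 4, against 3094.5, 2942.7, 2154.0 and 2410.2 in knockout-labelled libraries 1 to 4. The groups did not overlap, but library 3 labelled knockout lay next to wild type library 4. The mean went from 1838 ± 257 to 2650.3 ± 442 (SD, n = 4), a log2 difference of 0.52 ± 0.17 (SE) that did not pass. Without wild type library 2 the difference of Psmb8 was 0.56 and passed, and with the trend removed it was 0.31 ± 0.16.

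Psmb9, the beta-1i subunit (ENSMUSG00000096727.3, protein-coding, chr17:34181987-34187764, minus strand), was 454.0, 484.8, 224.3 and 444.4 normalised reads in wild type libraries 1 to 4. Knockout-labelled libraries 1 to 4 had 497.3, 568.6, 405.5 and 600.9. Wild type library 3 was low, and library 3 labelled knockout lay below 3 of the wild type values. The mean was 402 ± 119.6 against 518 ± 86.6 (SD, n = 4), a log2 difference of 0.41 ± 0.27 (SE) that did not pass. It was 0.52 without wild type library 2 and 0.09 ± 0.26 with the trend removed.

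Tap1, Psmb9, Psmb8 and Tap2 are neighbours in the class II region of chromosome 17, and the strand of a read is not kept by the library kit named in the labels. Exons of Tap1 and Psmb9, which run in opposite directions, share 212 bases, and their promoter windows share 225. Exons of Psmb8 overlap the antisense transcript Gm20496 by 498 bases. Exons of Tap2 overlap Gm15821 by 533 bases and Gm20496 by 165, and those of Tapbp overlap Zbtb22 by 149 and the antisense Gm19412 by 904. Reads in these stretches could not be assigned to 1 gene, while the 4 heavy chains and B2m share no exon bases with another gene.

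**Figure D4:**
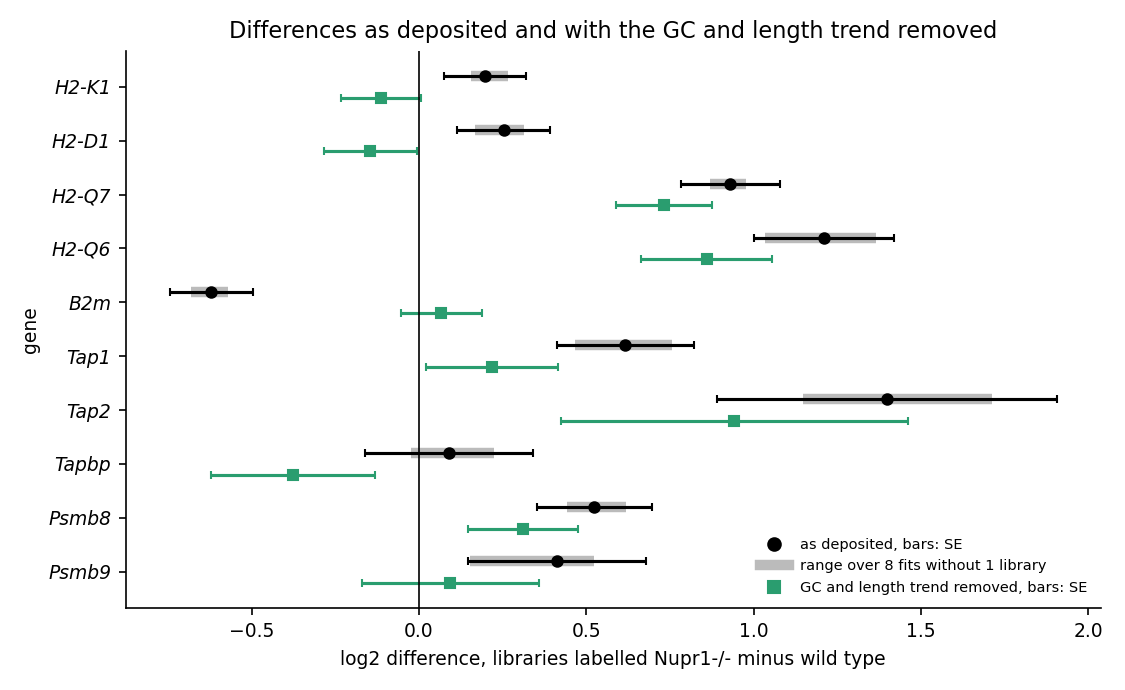
Log2 difference between groups for each of the 10 genes as deposited (black, bars SE) and with the GC and length trend removed (green, bars SE); grey bands span 8 fits with 1 library omitted. H2-Q6 and H2-Q7 stay above 0 in both, B2m goes from -0.62 to 0.07, and H2-K1, H2-D1 and Tapbp go from above to below 0.

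The members differed in how closely they followed each other. Over the 8 libraries the log2 values of H2-Q7 and H2-Q6 had a Pearson correlation of 0.915, those of H2-Q7 and Tap1 0.887, and those of H2-Q7 and B2m -0.974. The 2 groups make most of such a correlation. With the group means taken out, H2-Q7 and Tap1 kept 0.863 and Tap1 and Psmb9, which share exon bases, 0.697, whereas H2-Q6 and H2-Q7 had 0.363. B2m had -0.726 with H2-Q7 and -0.865 with Tapbp. The points share their library, and these values are descriptions over 8 libraries.

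Wild type library 3 had the lowest mean of the standardised log2 values of the 10 genes, -1.14, where the other wild type libraries had -0.33 to -0.24 and those labelled knockout 0.29 to 0.70. Among genes outside the 10, the most alike pattern over the 8 libraries was that of Erdr1 (Pearson correlation 0.969), Pik3cd (0.969), a PI3-kinase subunit of leukocytes, Batf (0.964), an AP-1 family transcription factor, Psd4 (0.962) and Sufu (0.961), a negative regulator of Hedgehog signalling. With the group means taken out the most alike were Anks3 (0.977), Ubtd1 (0.972), Atic (0.969), Fam161b (0.966) and Camk1 (0.954), all of which were at their lowest wild type value in library 3. These patterns too were compared on values that still hold the GC trend.

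The rest of the class I pathway did not pass in these libraries. Of 82 other pathway genes listed, 63 were in the table and 58 were tested, and 0 of the 58 passed in limma, where 3.80% of all genes did. An unadjusted p under 0.05 was found for 9 (4 higher, 5 lower), against 19.7% of all genes. On the recovered reads edgeR called 0, DESeq2 3 (Fcgrt, Irf2 and Thop1) and limma-voom 2 (Fcgrt and Thop1). Over all 10989 tested genes they called 307, 764 and 613. The median log2 difference of the 58 was -0.02, and 27 lay above 0. Without wild type library 2, 4 passed in limma (Creb1, Fcgrt, Ifnar1 and Thop1), where 883 of 10838 genes did.

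Of 6 other heavy chains tested, 0 passed. H2-T23, which encodes Qa-1, the ligand of inhibitory receptors on natural killer cells, was 912 ± 139.8 normalised reads in wild type against 985 ± 72.5 (SD, n = 4; log2 0.12, and -0.22 with the GC and length trend removed; limma adjusted p = 0.762). H2-T22, a ligand of gamma-delta T cells, was 1099 ± 177 against 1078 ± 137 (log2 -0.02, limma adjusted p = 0.96). H2-Q4, a neighbour of the Qa-2 genes, was 465.8, 158.6, 233.3 and 393.0 in wild type libraries 1 to 4, against 151.7, 281.8, 236.8 and 165.7 in knockout-labelled libraries 1 to 4. Its log2 difference was -0.50 ± 0.35 (SE, limma adjusted p = 0.455), and the groups overlapped. H2-M3, which presents bacterial formyl peptides, and H2-Q10, a secreted class I molecule, had log2 differences of -0.43 ± 0.67 and 1.23 ± 1.03 (SE; limma adjusted p = 0.767 and 0.539). H2-Q10 was read at 1.4 to 39.8 normalised reads in the 8 libraries and H2-T24 at 2.0 to 35.0, so few reads stand behind these values.

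Among 4 class I-like molecules tested, 0 passed. Fcgrt, the neonatal Fc receptor, whose chain also pairs with B2m, was 52.2, 75.9, 55.8 and 31.0 normalised reads in wild type libraries 1 to 4. In knockout-labelled libraries 1 to 4 it was 179.4, 144.6, 117.5 and 142.6, all above wild type. Its log2 difference of 1.48 ± 0.44 (SE) missed the threshold (limma adjusted p = 0.0709). With the GC and length trend removed the difference of Fcgrt was 1.09 ± 0.44 (SE, limma adjusted p = 0.296). Cd1d1, which presents lipids, was 276 ± 57.0 against 223 ± 137 (SD, n = 4; limma adjusted p = 0.504).

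Of 10 genes of peptide loading and quality control in the endoplasmic reticulum, 0 passed. Calr, the chaperone calreticulin of the loading complex, was 552 ± 131 against 758 ± 89.1 normalised reads (SD, n = 4; log2 0.48, limma adjusted p = 0.225). Canx, calnexin, which holds free heavy chains, was 2571 ± 507 against 2065 ± 168 (log2 -0.30, limma adjusted p = 0.332, and 0.14 with the GC and length trend removed). The loading complex oxidoreductase Pdia3 (0.33), the trimming peptidase Erap1 (-0.60) and the tapasin relative Tapbpl (-0.17) had limma adjusted p of 0.588, 0.509 and 0.855 for these log2 differences.

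Of 6 immunoproteasome and activator genes beside the members, 0 passed. Psmb10, the third immunoproteasome catalytic subunit, was 847 ± 181 against 834 ± 55.5 normalised reads (SD, n = 4; log2 difference -0.0003, limma adjusted p = 0.9995). Psme1 and Psme2 encode partner subunits of the interferon-induced proteasome activator, and their log2 differences were 0.21 ± 0.19 and -0.53 ± 0.19 (SE; limma adjusted p = 0.579 and 0.138). With the GC and length trend removed Psme1 turned to -0.21. Psme2 was 784.7 to 985.4 in wild type and 552.2 to 724.4 in knockout-labelled libraries, without overlap. The constitutive subunits Psmb5, Psmb6 and Psmb7 had log2 differences of 0.44, 0.25 and -0.43 (limma adjusted p = 0.302, 0.487 and 0.371), and 0 of the 3 passed. Psmb7 turned to 0.10 with the trend removed.

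Per kilobase, Psmb8 over its constitutive counterpart Psmb5 was 0.842 ± 0.221 in wild type and 0.878 ± 0.143 in knockout-labelled libraries (SD, n = 4). Psmb9 over Psmb6 was 0.275 ± 0.103 against 0.295 ± 0.0713, and Psmb10 over Psmb7 was 3.49 ± 0.884 against 4.72 ± 1.41. The groups overlapped in all 3 ratios. Thop1, a cytosolic peptidase that destroys peptides before they reach the transporter, was 10.4, 85.7, 34.9 and 55.2 normalised reads in wild type libraries 1 to 4, against 135.6, 159.6, 128.1 and 169.4 in knockout-labelled libraries 1 to 4. Its values did not overlap, and the log2 difference of 1.98 ± 0.57 (SE) missed the threshold (limma adjusted p = 0.0601). With the GC and length trend removed the difference of Thop1 was 1.42 ± 0.56 (SE, limma adjusted p = 0.285). Of 6 cytosolic peptidases 0 passed, and Blmh, bleomycin hydrolase, had a log2 difference of 0.63 (limma adjusted p = 0.488).

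Of 23 tested regulators of the class I genes 0 passed, and 5 had an unadjusted limma p under 0.05 (1 higher, 4 lower). Over all tested genes the share below that level was 19.7%. Nlrc5, the transactivator of class I promoters, was 243 ± 80.8 against 301 ± 38.98 normalised reads (SD, n = 4; log2 0.36 ± 0.30, SE, limma adjusted p = 0.527). Rfx5, a subunit of the complex that recruits it, was 225 ± 75.4 against 264 ± 106 (limma adjusted p = 0.791). Irf1, an interferon-induced factor that binds class I promoters, overlapped as well (log2 0.03, limma adjusted p = 0.962, and -0.21 with the GC and length trend removed). Ifngr1, a chain of the interferon gamma receptor, was 167.0 to 217.2 in wild type and 51.1 to 153.7 in knockout-labelled libraries. Its values lay below wild type without overlap, with a log2 difference of -1.16 ± 0.40 (SE, limma adjusted p = 0.115). Ifnar1, a chain of the type I interferon receptor, was 433 ± 154 against 236 ± 53.2 (SD, n = 4; log2 -0.83, limma adjusted p = 0.126), with overlap.

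Interferon-induced genes outside antigen presentation did not pass either. Of 49 listed, 46 were tested and 0 passed in limma, where 3.80% of all tested genes did. The unadjusted limma p lay below 0.05 in 8 (5 higher, 3 lower), next to 19.7% of all tested genes. EdgeR called 0, DESeq2 1 (Ifi27) and limma-voom 3 (Ifi27, Ifitm1 and Oas1a), where they called 307, 764 and 613 of all 10989 tested genes. Without wild type library 2 the limma count was 5, where 883 of 10838 genes passed. Nothing about interferon-induced genes is read from these counts. The median log2 difference was 0.14, with 29 of the 46 above 0. Ifi27 was 285 ± 51.98 against 483 ± 36.0 normalised reads and Oas1a, a sensor of double-stranded RNA, 238 ± 78.0 against 432 ± 25.3 (SD, n = 4). Both were higher without overlap in the knockout-labelled libraries, with log2 differences of 0.78 ± 0.24 and 0.93 ± 0.29 (SE, limma adjusted p = 0.0794 and 0.0828). With the GC and length trend removed they were 0.70 ± 0.245 and 0.75 ± 0.29 (SE, limma adjusted p = 0.219 and 0.279).

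**Figure D5:**
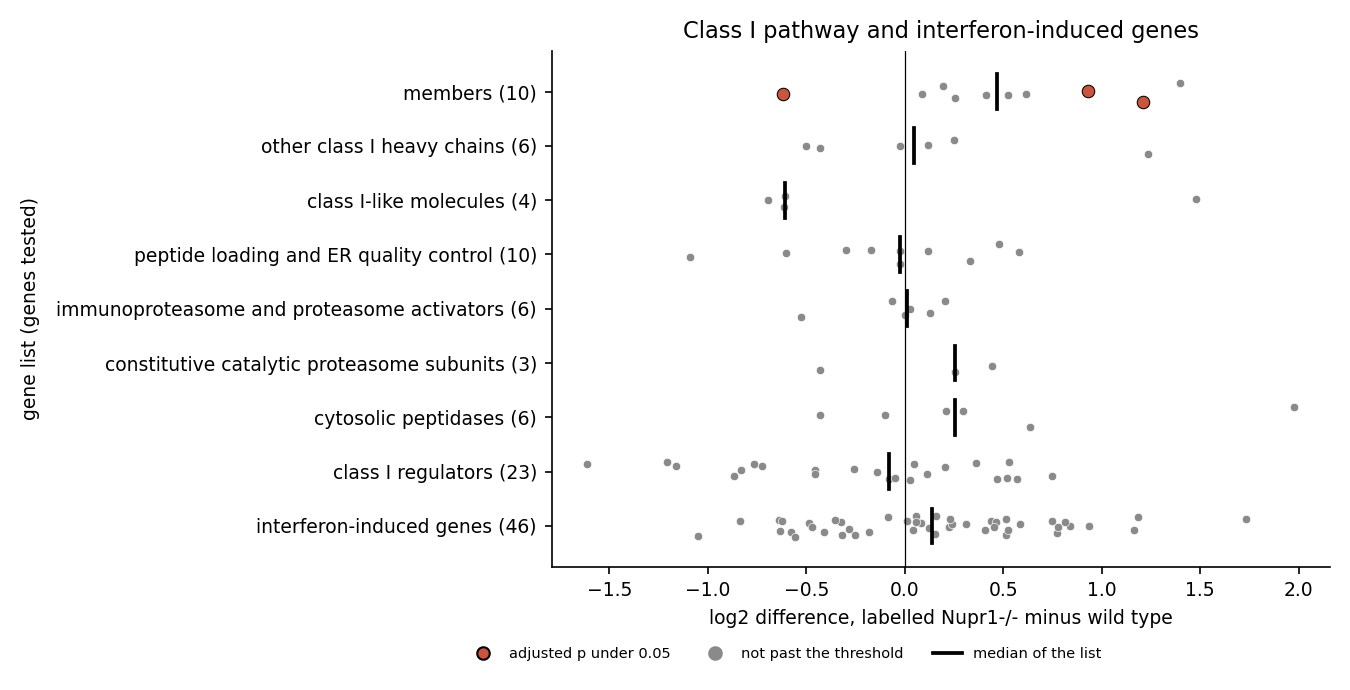
Log2 difference between groups for the 10 members, 7 lists of other class I pathway genes and the interferon-induced genes, 1 point per tested gene, with the median of each list as a black bar and genes past the limma threshold in red. The 3 red points are B2m, H2-Q7 and H2-Q6, and 0 points of the other lists are red.

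Markers of other cell types that carry class I or class II molecules were also read. Of 16 B cell and class II markers 8 were in the table, and their summed level was 1166 to 6322 normalised reads in wild type and 1521 to 2930 in knockout-labelled libraries. That sum was highest in wild type libraries 3 and 4, and Cd74, the class II invariant chain, was 938.2 and 1076.3 there against 71.9 to 380.8 in the other 6 libraries. Of 12 T and NK cell markers 3 were in the table (145.5 to 520.8 against 166.2 to 476.3), of 11 monocyte and macrophage markers 4 (1654.5 to 3168 against 1441 to 2630.2) and of 9 dendritic cell markers 4 (90.7 to 211.6 against 146.3 to 218.7). These 3 sums overlapped between the groups. Of 13 megakaryocyte and platelet markers 10 were in the table, with sums of 4045 to 4966 against 4481 to 5376, and 4 of them (Gp9, Itga2b, Pf4 and Vwf) were called higher in knockout-labelled libraries, where 1.68% of all genes were. EdgeR called 2 of these markers, DESeq2 5 and limma-voom 4, where they called 307, 764 and 613 of all 10989 tested genes. The groups were fully apart in 5 of the 10, all higher, against 11.7% of all genes. The median log2 difference of the 10 was 1.85. With the GC and length trend removed it was 1.41, and 0 passed. Erythroid markers (6 of 11 in the table) summed to 240.2 to 571.4 against 363.9 to 542.5, and 1 of them, Klf1, was called higher (0 to 3.0 against 24.9 to 85.7) but did not pass with the trend removed. Of 11 neutrophil markers only Prtn3 was in the table, at 983.4 to 2908.4 against 847.2 to 1445.2. Whether cells of these types took part in the differences of the class I genes was not tested.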

How the data were processed

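Polyadenylated RNA of HSCs was made into Nextera XT libraries, per the labels' protocols. Tools named in the submitters' processing notes are HISAT2, featureCounts of Subread, DESeq2 and bcl2fastq, with mm10 as the build. Their versions and settings are not given in the sources used here. Values in the deposited table are presented as raw counts but hold a normalised signal: within a tolerance of 0.001, 100% of a library's values were multiples of 1 step, so the authors' counts had been divided by a size factor. Wild type library 3 has a step so near 1 that its recovery rests on its low values, 0 of 1512 of which are whole numbers. Recovered reads served only the alternative count tests.

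The 10 genes, the gene lists and the tests were chosen with earlier results of these data known. Values were tested as log2(value + 1) in R 4.3.3 by limma 3.58.1, two-sided, with a robust eBayes step and a variance trend, over the 10989 genes with at least 10 in at least 4 libraries (865 left out, 1 entry without a name not used), with Benjamini-Hochberg adjustment over all of them. Fold changes are on that scale, which understates changes of low genes. Nothing in the labels says more on replicates than 1 library per mouse. Symbols were matched to GENCODE M21 (11715 genes, 452 by an older symbol). GC and length trends were removed per library with mgcv 1.9.3, and 101 tested genes without a GC value were left as they were. Alternatives were added values of 5 and 10, no filter and a filter at 50, edgeR 4.0.16, DESeq2 1.42.0, limma-voom, upper quartile scaling, a replicate block and leaving out each library. Removing the GC or the length trend alone was added after seeing the data. The limma fit was run with and without the trend removal on simulated counts with known changes. Only the fit without the removal had a set condition to meet, and no result here rests on that run.

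Named by rule were the 10 genes, from each other list up to 6 called genes (the 2 genes of smallest p where fewer than 2 were called), and a set of pathway genes always given as values, 1 of which is not reported here. Creb1, Irf2, Ifitm1 and the genes listed only as called by a tool or alternative were named after their values were seen. Ehmt2 and Dhx16 are named as the called genes of the MHC region.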

Additional observations from a re-analysis of the deposited data

Results flagged for a closer look

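In 108 groups of 4 values from the class I and pathway genes, 4 held 1 library far from the other 3 of its group, and chance alone flags about 1 in 20 such groups. Psmb9 was 224.3 normalised reads in wild type library 3, where the other wild type libraries had 444.4 to 484.8. H2-T23 was 1118.9 in wild type library 1, where the others had 813.6 to 865.2. The share of H2-D1 in the class I heavy chain reads was 28.42% in wild type library 4, against 25.14% to 25.53% in the others. Xist was 11.8 in wild type library 2 and 0 in the other wild type libraries.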

How the results depend on the processing

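Over all genes, 418 passed; the count was 764 with DESeq2, 277 with the replicate block, 34 with the GC and length trend removed (11 higher, 23 lower, against 185 and 233), 33 with that removal and the block, 36 with the GC trend alone removed and 262 with the removal and wild type library 2 left out. Leaving out 1 library gave 48 (knockout-labelled library 2) to 883 (wild type library 2). Of the 10 class I genes 3 passed; the count was 5 with limma-voom, 1 with the GC and length trend or the GC trend alone removed, 0 with that removal and the block, and 2 (without knockout-labelled library 1 or 2) to 5 (without wild type library 2). Of the other pathway genes 0 passed, 1 with an added value of 5 or 10 or a filter at 50, 2 with limma-voom, 3 with DESeq2, 1 with the trend removed and wild type library 2 left out, and 0 to 4 (without wild type library 2) with 1 library left out. Of the interferon-induced genes 0 passed, 1 with DESeq2, 3 with limma-voom, 2 with the trend removed and wild type library 2 left out, and 0 to 5 with 1 library left out. Of the MHC region genes 2 passed, 5 with DESeq2, 4 with limma-voom, 0 with the GC and length trend (block or not) or the GC trend alone removed, 1 with the removal and wild type library 2 left out, and 0 (without knockout-labelled library 2) to 7 (without wild type library 2) with 1 library left out. The log2 difference of B2m turned direction with the GC and length trend removed (0.0668), also with the replicate block (0.0668) and without wild type library 2 (0.0782); the cause was not tested further. For the 10 genes 209 of 234 alternative values moved by less than the spread between replicates and 22 by more, and the other 3 are those of B2m above. Of 753 values of other named genes 711 were likewise unmoved or kept direction and side of the threshold. Of the rest 23 moved by more than the spread, 16 newly passed and 3 no longer passed. No pairing by replicate number was seen. Same-numbered libraries had correlations of -0.0566 to 0.0148 in their deviations from group means. Of the 4 wild type libraries, 0 correlated best with their own number. These values cannot show whether same-numbered mice were handled together, and the labels do not say. The smallest library held 2296101 reads, which limits genes as low as Tap2, H2-Q10 and H2-T24.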

Other observations

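The class I genes on chromosome 17 lie in a region dense with other genes, from the start of H2-K1 to the end of H2-T3 (chr17:33996017-36190287). Of 73 tested genes there outside the 10, 2 passed, both higher in the knockout-labelled libraries, where 1.68% of all genes were called higher. Ehmt2, a histone methyltransferase, was 190.1, 261.1, 256.2 and 362.8 normalised reads in wild type libraries 1 to 4, against 615.4, 796.8, 586.7 and 722.2 in knockout-labelled libraries 1 to 4 (log2 1.37 ± 0.25, SE, limma adjusted p = 0.00852). Dhx16, a helicase of the splicing machinery, was 217.9, 70.9, 226.3 and 379.4 against 443.3, 663.3, 590.2 and 618.5 (log2 1.58 ± 0.38, SE, limma adjusted p = 0.0340). Neither gene overlapped between the groups. Without knockout-labelled library 2 the count was 0, and without wild type library 2 it was 7. The median log2 difference of the 73 was 0.33, and 53 of them were above 0. With the GC and length trend removed the median was 0.02, Ehmt2 was 0.81 ± 0.25 and Dhx16 1.08 ± 0.40 (SE), and 0 of the 73 passed.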
